A study of Mus musculus with 7 samples.

Results

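The 37 genes described here encode the enzymes and carriers of mitochondrial fatty acid oxidation and ketone body metabolism, with the pyruvate dehydrogenase kinases and Ucp2. They were taken by gene symbol from a table of 47069 genes measured by RNA sequencing of the mouse duodenum, the first segment of the small intestine. Of the mice, 3 received T09 at 50 mg/kg/day, and 4 controls received the vehicle, 0.5% carboxymethylcellulose. T09 is T0901317, a synthetic compound that activates LXR, the liver X receptors, which are the cell's sensors of oxidised cholesterol. All 7 mice were males aged 8 to 12 weeks with no engineered allele named. Their strain is C57BL/6 per sample and C57BL/6J in the series text. Each mouse gave 1 library, and how long treatment lasted is not given in the sources at hand. The comparison asks how the agonist changes the transcripts of this pathway in the gut.

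Long-chain fatty acids enter the mitochondrion as carnitine esters. CPT1 on the outer membrane makes the ester, the carrier SLC25A20 takes it across the inner membrane, and CPT2 on the inner membrane turns it back into acyl-CoA. Acyl-CoA dehydrogenases then begin each turn of the oxidation spiral, and hydratases, hydroxyacyl-CoA dehydrogenases and thiolases complete it and release acetyl-CoA. Electrons taken by the acyl-CoA dehydrogenases pass through the flavoprotein ETF to ubiquinone. In liver, and in the intestine of suckling rodents, part of the acetyl-CoA becomes ketone bodies, which other tissues oxidise. Many of these genes are known targets of PPAR alpha, a nuclear receptor activated by fatty acids.

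The genes that passed the test with T09 all rose, and all belonged to the entry of fatty acids or the oxidation spiral. All 37 passed the filter on low counts, and 8 were higher with T09 while 0 were lower (edgeR's quasi-likelihood test, Benjamini-Hochberg adjusted p under 0.05 over 14250 genes). That is 21.6% higher, beside 1.44% of all genes tested that were called higher and 2.87% called lower (4.31% in either direction). The genes that rose were Cpt1a, Slc25a20 and Cpt2 of the carnitine shuttle, the dehydrogenase gene Acadl, and Hadha, Hadhb, Decr1 and Acaa2 of the later steps. The increases ran between 1.42-fold for Decr1 and 2.22-fold for Acadl. At an unadjusted p under 0.05, 15 of the 37 were higher and 4 lower, beside 7.26% higher and 10.6% lower of all genes tested. After adjustment, 0 were called lower with limma-voom but 1, Oxct1, with DESeq2.

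Together the 37 genes took 0.669%, 0.659% and 0.685% of all counts in the T09 libraries, against 0.558%, 0.570%, 0.536% and 0.547% in the vehicle libraries. Every T09 share lay above every vehicle share. The 24 genes of a comparison list of other mitochondrial proteins took 1.51% to 1.54% of counts with T09 and 1.53% to 1.59% with vehicle. None of those 24 was called by edgeR, DESeq2 or limma-voom, and 2 had an unadjusted p under 0.05. The median log2 fold change was 0.16 over the 37 genes, 0.06 over the comparison list and 0.02 over all genes tested. In whole-tissue RNA, fewer cells of a type and less RNA per cell cannot be told apart.

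**Figure D1:**
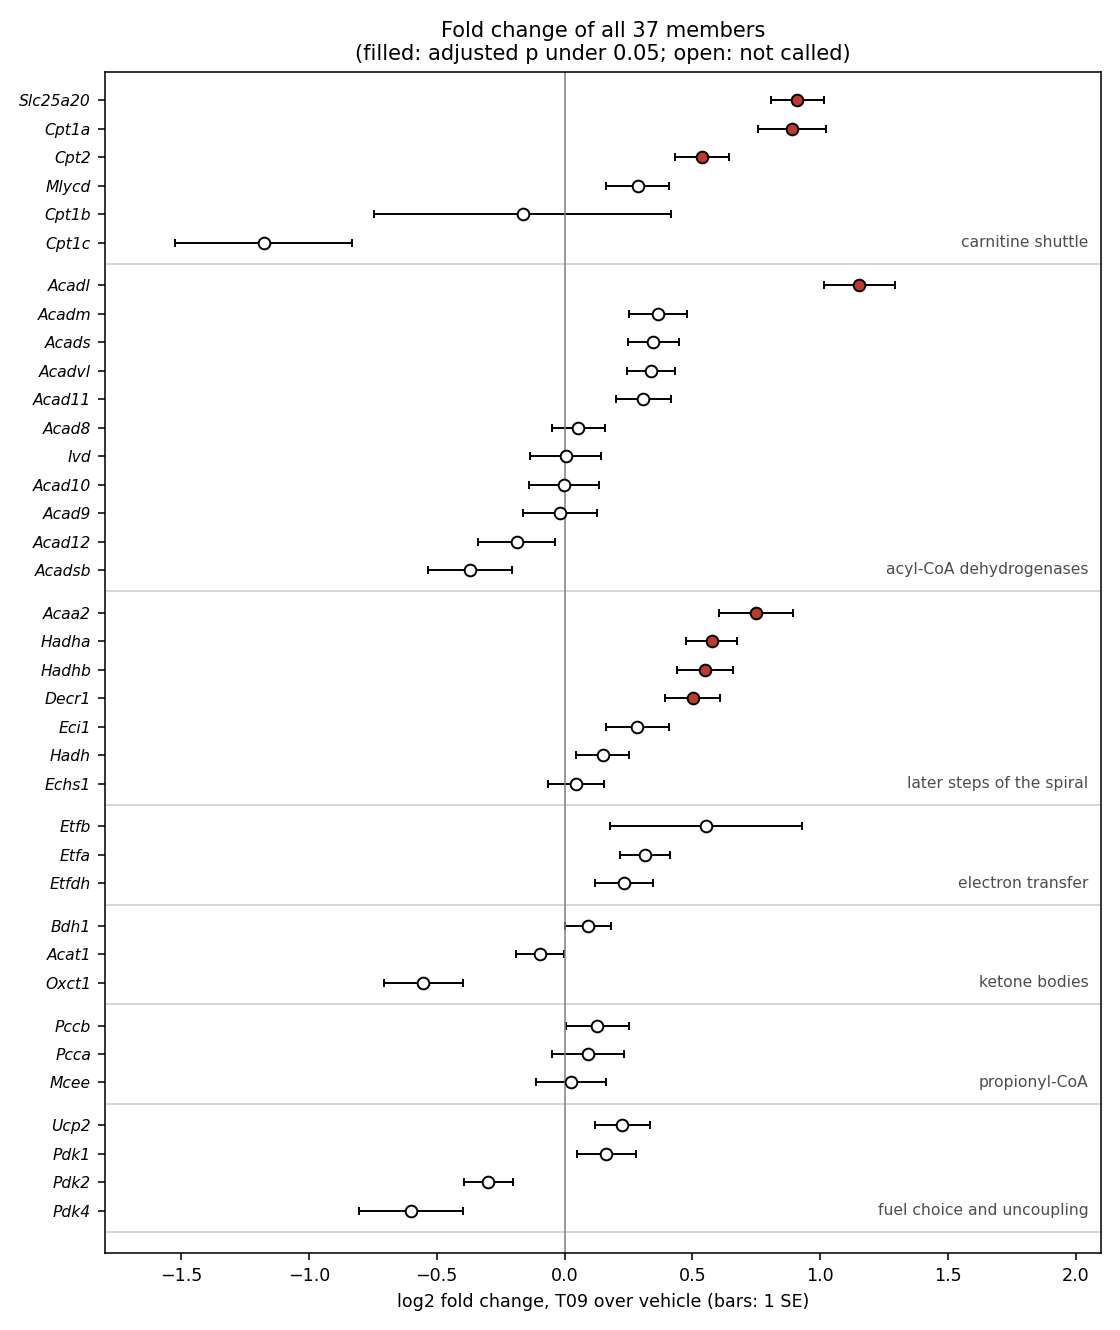
Log2 fold changes of the 37 genes, T09 over vehicle, grouped by role (3 T09 and 4 vehicle libraries). Bars show the SE from edgeR's quasi-likelihood fit, not a confidence interval. The 8 called genes lie between 0.50 and 1.15 and belong to the carnitine shuttle, the acyl-CoA dehydrogenases and the later steps; no gene was called below 0.

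The sequences just upstream of 3 of the called genes, and the short stretch between a further called pair, are shown because these genes rose together. They are from RefSeq on GRCm38.p6, 5′ to 3′ on the strand of the gene named, and capitals mark GC boxes, the hexamer GGGCGG on either strand. The first is the whole gap of 85 bases between the listed ends of Hadha and Hadhb, which are transcribed away from each other (chr5:30155163-30155247, plus strand). The others are 120 bases each, and they end at different points relative to the gene. That of Cpt1a ends a few bases before its start (chr19:3323165-3323284, plus strand). That of Slc25a20 ends at the start listed in the count table, upstream of the RefSeq start (chr9:108661968-108662087, plus strand). That of Acadl ends at the RefSeq start (chr1:66863310-66863429, minus strand).
Hadha to Hadhb gap, on the strand of Hadhb: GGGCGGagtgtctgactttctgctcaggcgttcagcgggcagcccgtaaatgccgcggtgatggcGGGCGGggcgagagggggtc
Cpt1a: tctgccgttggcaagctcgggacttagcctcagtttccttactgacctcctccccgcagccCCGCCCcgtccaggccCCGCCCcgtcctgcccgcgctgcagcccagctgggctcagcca
Slc25a20: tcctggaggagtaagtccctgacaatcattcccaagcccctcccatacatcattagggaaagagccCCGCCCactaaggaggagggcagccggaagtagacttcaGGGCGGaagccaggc
Acadl: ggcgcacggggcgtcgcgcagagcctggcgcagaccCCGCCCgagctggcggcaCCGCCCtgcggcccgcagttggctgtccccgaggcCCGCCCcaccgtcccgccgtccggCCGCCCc
The gap between Hadha and Hadhb held 2 GC boxes, the Cpt1a and Slc25a20 stretches 2 each and the Acadl stretch 4. A GC box stood in the promoter of 21 of the 32 genes with a RefSeq window of 250 bases before to 50 after the start, and in 35.7% of all 32851 windows. The units differ, since the 32 genes had 36 windows and a gene counted if any of its windows matched. The share of all windows counts each window singly, here and for the repeats below. The same windows were searched on both strands for direct repeats of the nuclear receptor half-site AGGTCA. The repeat with 1 base between its hexamers (AGGTCANAGGTCA, DR1) is the form PPAR alpha is known to bind, and that with 4 bases between (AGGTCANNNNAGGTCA, DR4) the form LXR is known to bind.

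None of the 32 genes held an exact DR1 or DR4 in this window, nor one with 1 mismatch. Among all windows, 0.0396% held an exact DR1 and 0.0152% an exact DR4, and 0.554% and 0.250% held one with up to 1 mismatch. With up to 2 mismatches, Slc25a20, Etfa, Echs1 and Pcca held a DR1, beside 3.86% of all windows, and Acadvl held a DR4, beside 3.02%. Of the called genes, Decr1 and Acaa2 were not searched, and among the other 6 only Slc25a20 had such a match, at chr9:108662142-108662154 on the plus strand, bases 7 to 19 counted from the RefSeq start.
Slc25a20 match: AGGTGAaAGGTCG
It differs from the repeat by C5G and A13G, with positions counted from 1 at its 5′ end and the base of the repeat given first. A match is a string of letters, not a shown binding site, and a window without one says nothing of sites elsewhere.

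The carnitine shuttle had 3 of 6 genes called higher with T09, and its median log2 fold change was 0.41. Cpt1a encodes the CPT1 isozyme of liver and gut, the rate-setting step of mitochondrial fatty acid entry (chromosome 19, 3323301 to 3385732). It had 226, 237 and 207 CPM (counts scaled to library size) in the T09 libraries, against 120.3, 145, 120.2 and 96.5 CPM in the vehicle libraries. Every T09 library lay well above the highest vehicle library. The mean was 224 ± 15.2 CPM with T09 and 120.5 ± 19.8 CPM with vehicle (SD, n = 3 and 4), a log2 fold change of 0.89 (SE 0.13, adjusted p = 0.00692).

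Slc25a20, the carnitine-acylcarnitine carrier (chromosome 9, 108662088 to 108684641), had 164, 187 and 194 CPM with T09, against 88.4, 105, 103 and 90.0 CPM with vehicle. The groups were again far apart, and the gene rose 1.88-fold (log2 fold change 0.91, SE 0.10, adjusted p = 0.00289). Cpt2, which restores acyl-CoA in the matrix (chromosome 4, 107903981 to 107923610), had 204, 223 and 250 CPM with T09, against 152, 173, 152 and 144 CPM with vehicle. Its lowest T09 library lay above its highest vehicle library by less than for Cpt1a and Slc25a20, and its log2 fold change was 0.54 (SE 0.10, adjusted p = 0.0225). The Cpt2 call was lost when vehicle replicate 3, vehicle replicate 4, T09 replicate 2 or T09 replicate 3 was left out (log2 fold change 0.46 to 0.55 and adjusted p 0.0689 to 0.0857 over these), whereas Cpt1a and Slc25a20 were called in all 14 alternative analyses.

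The remaining isozymes of CPT1 had few counts. Cpt1c, the isozyme of neurons, had 8, 12 and 10 counts with T09, against 25, 26, 15 and 24 counts with vehicle. The groups did not overlap, but the difference did not pass the test (log2 fold change -1.18, SE 0.35, adjusted p = 0.102). Markers of enteric neurons and glia were also lower with T09 (0.000588% to 0.000683% of counts, against 0.00166% to 0.00279% with vehicle), and their part in the Cpt1c values was not tested. Cpt1b, the isozyme of muscle and heart, had 2, 15 and 11 counts with T09, against 10, 12, 8 and 12 counts with vehicle (log2 fold change -0.16, 95% interval -1.47 to 1.14). The low count of T09 replicate 1 set the direction here, since without it the log2 fold change was 0.36. Cpt1b values are uncertain, because 81.4% of its exonic bases also belong to a read-through gene on the same strand, and its listed row lies within that of Chkb.

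Per length, Cpt1a made up 99.6%, 98.3% and 98.4% of the summed FPKM of the 3 isozymes with T09, against 96.9%, 97.1%, 97.3% and 95.7% with vehicle. Nearly all FPKM assigned to the 3 isozymes was thus that of Cpt1a in both groups. The Cpt1b part of this share is uncertain, because the Chkb row that contains it had 1887 to 3057 counts per library. How reads shared by the 2 rows were counted is not known. Mlycd, which breaks down the CPT1 inhibitor malonyl-CoA, had 68.4 ± 8.45 CPM with T09 and 56.1 ± 6.79 CPM with vehicle (SD, n = 3 and 4) and was not called (log2 fold change 0.29, SE 0.12, adjusted p = 0.264).

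**Figure D2:**
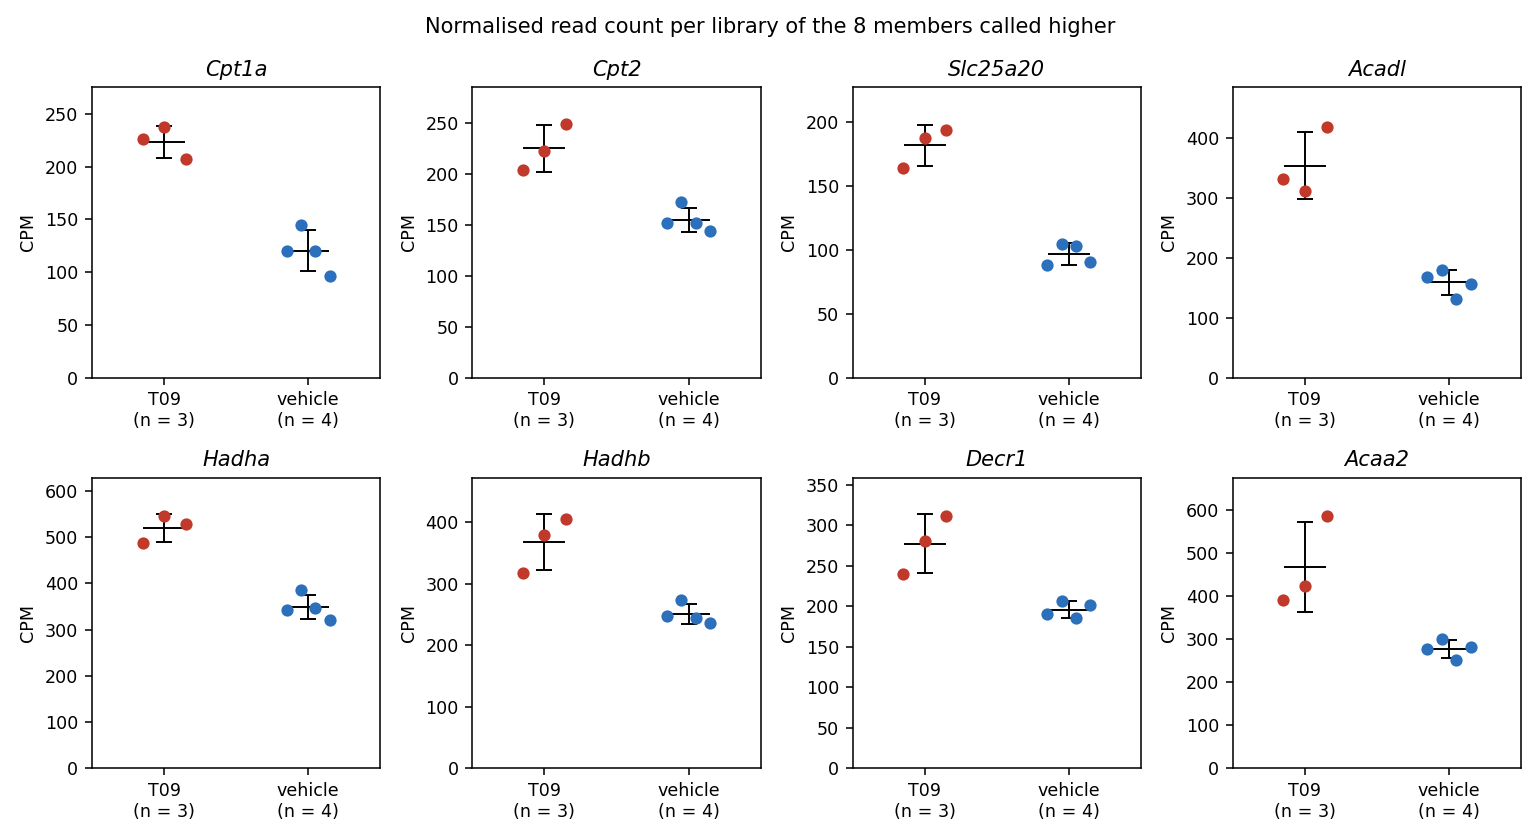
CPM per library of the 8 genes called higher, with T09 (n = 3) left of vehicle (n = 4); points are libraries, bars the mean and SD. In each of the 8 panels the lowest T09 library lies above the highest vehicle library, with the widest gap for Acadl.

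The acyl-CoA dehydrogenases had 1 of 11 genes called, Acadl, and a median log2 fold change of 0.05. Acadl encodes the long-chain enzyme, which in mice carries much of long-chain acyl-CoA oxidation (chromosome 1, 66830839 to 66863277). It had 331, 312 and 418 CPM with T09, against 168, 179, 132 and 156 CPM with vehicle. The T09 libraries were all above the vehicle libraries by a wide margin, and the 2.22-fold increase was the largest of the 37 genes (354 ± 56.6 CPM with T09 and 159 ± 20.5 CPM with vehicle, SD, n = 3 and 4; log2 fold change 1.15, SE 0.14, adjusted p = 0.00327). The call held in all 14 alternatives, with a log2 fold change of 1.02 to 1.24.

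The genes for the short-, medium- and very-long-chain enzymes had groups that did not overlap but were not called. Acads (short chain) had 74.0, 90.2 and 89.8 CPM with T09, against 61.9, 66.4, 70.1 and 67.7 CPM with vehicle (log2 fold change 0.35, SE 0.10, adjusted p = 0.0919). Acadm (medium chain) had 203, 233 and 275 CPM with T09, against 172, 191, 180.1 and 191 CPM with vehicle (0.37, SE 0.11, adjusted p = 0.124). In both genes T09 replicate 1 was the T09 library nearest to vehicle, and without it both were called (0.44 and 0.47, adjusted p = 0.0383 and 0.0451).

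Acadvl (very long chain) had 176, 185 and 159 CPM with T09, against 133, 133, 150.1 and 134 CPM with vehicle (log2 fold change 0.34, SE 0.09, adjusted p = 0.0839). Its groups were separated by a narrow gap between T09 replicate 3 and vehicle replicate 3, and 42.9% of its exonic bases are shared with Dvl2 on the opposite strand, which counts without strand cannot separate. Acad11, an enzyme of very long chains and of hydroxylated acids, had 122, 138 and 129 CPM with T09, against 122, 103, 93.7 and 100.3 CPM with vehicle (0.31, SE 0.11, adjusted p = 0.170). There vehicle replicate 1 came within a small fraction of a CPM of the lowest T09 library.

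The other 6 genes of the group had log2 fold changes between -0.37 and 0.05 and were not called. Ivd and Acadsb, of branched amino acid breakdown, stood at 0.0041 (95% interval -0.31 to 0.32) and -0.37 (-0.74 to 0.0025). Acad8, which serves valine breakdown, stood at 0.05 (-0.18 to 0.29). Acad9, also an assembly factor of respiratory complex I, stood at -0.02 (-0.34 to 0.31). Acad10 and Acad12, close relatives whose reads may be shared, stood at -0.0024 (-0.31 to 0.31) and -0.19 (-0.52 to 0.15).

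The ratio of CPM within each library sets Acadl beside the other dehydrogenases. All ratios are given as a description, with no test, because the pairs were chosen after the fold changes were seen. The ratio of Acadl to Acadm was 1.64, 1.34 and 1.52 with T09, against 0.980, 0.937, 0.731 and 0.818 with vehicle. All T09 ratios lay above all vehicle ratios. The ratio was 1.73-fold higher with T09, and the ratios of Acadl to Acadvl and to Acads were 1.76-fold and 1.75-fold higher.

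The remaining 3 pairs were Cpt1a with Cpt2, Hadha with Hadh and Hadha with Hadhb. Cpt1a to Cpt2 was 1.29-fold higher with T09, with overlapping groups. Hadha to Hadh was 1.35-fold higher. Hadha to Hadhb was 1.54, 1.43 and 1.30 with T09, against 1.38, 1.41, 1.42 and 1.36 with vehicle, a 1.02-fold difference with overlapping groups. These 2 genes encode the alpha and beta subunits of 1 complex, and their ratio spread more among the T09 libraries than among the vehicle libraries.

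**Figure D3:**
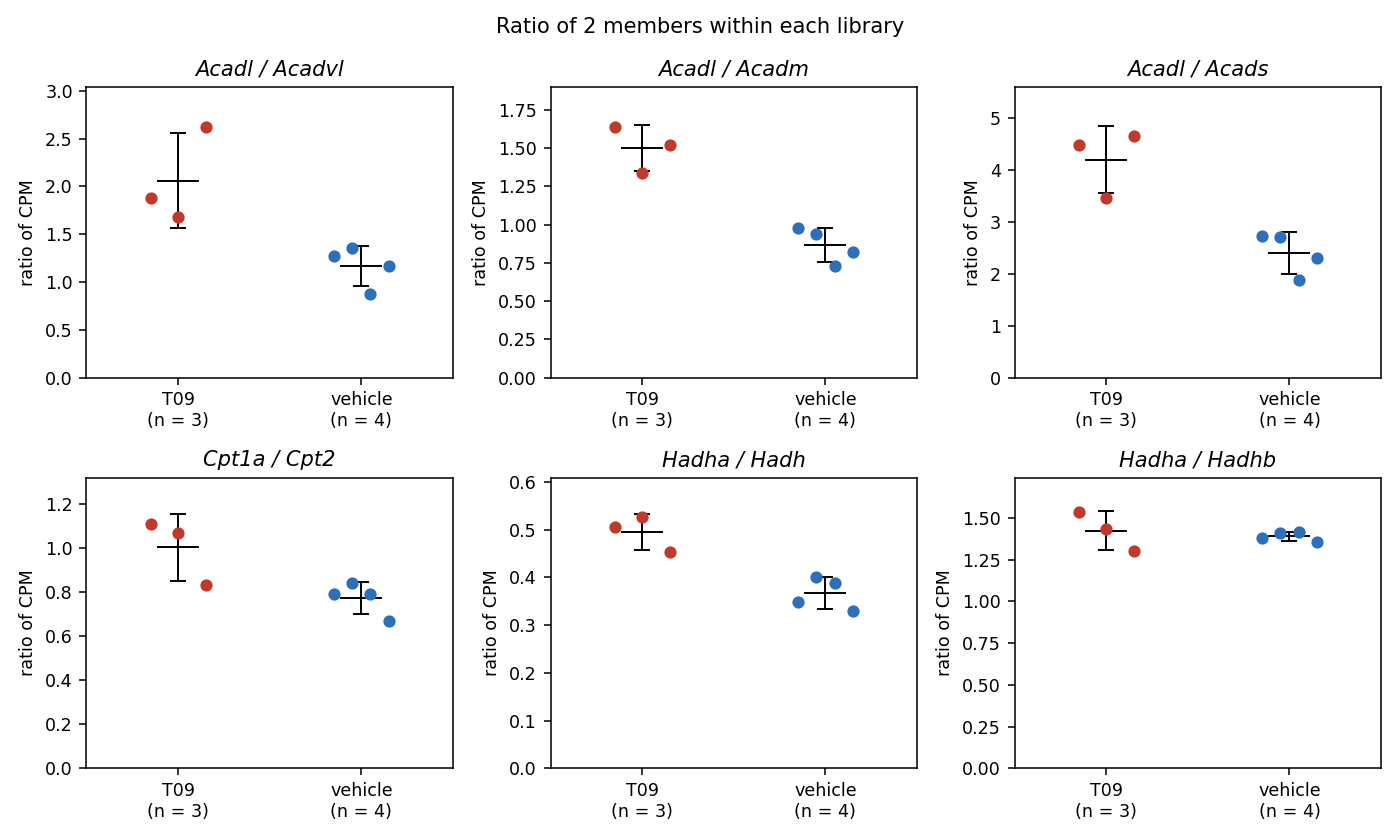
Ratio of CPM of 2 genes within each library, with T09 (n = 3) left of vehicle (n = 4); points are libraries, bars the mean and SD. The 3 ratios with Acadl on top and that of Hadha to Hadh have groups that do not overlap, whereas Cpt1a to Cpt2 and Hadha to Hadhb overlap.

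Of the later steps of the spiral, 4 of 7 genes were called higher with T09, all 7 had log2 fold changes above 0, and the median was 0.50. Hadha and Hadhb encode the trifunctional protein, which carries out the last 3 reactions on long chains (chromosome 5, 30118304 to 30155162 and 30155248 to 30184593). Hadha had 487, 544 and 528 CPM with T09, against 343, 385, 346 and 321 CPM with vehicle (log2 fold change 0.58, SE 0.10, adjusted p = 0.0139). Hadhb had 317, 379.6 and 405 CPM with T09, against 248, 273, 244 and 237 CPM with vehicle (0.55, SE 0.11, adjusted p = 0.0251). The groups were apart in both, with T09 replicate 1 the lowest T09 library of each.

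Decr1, the dienoyl-CoA reductase needed for polyunsaturated chains (chromosome 4, 15917240 to 15945507), had 239, 281 and 312 CPM with T09, against 189.9, 207, 185 and 201 CPM with vehicle. It rose 1.42-fold (log2 fold change 0.50, SE 0.11, adjusted p = 0.0342). Acaa2, the thiolase of medium chains (chromosome 18, 74779197 to 74806207), had 391, 425 and 586 CPM with T09, against 277, 302, 251 and 282 CPM with vehicle. T09 replicate 3 was far above the other T09 libraries, and the gene rose 1.68-fold (0.75, SE 0.14, adjusted p = 0.0218).

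These 4 calls depended on single libraries, although the direction did not. Hadha was not called without T09 replicate 2 or T09 replicate 3 (log2 fold change 0.54 and 0.57, adjusted p = 0.0707 and 0.0516). Acaa2 was not called without vehicle replicate 1, 3 or 4 (0.70 to 0.75, adjusted p 0.0530 to 0.0689). Hadhb was not called when any 1 of these 5 libraries was left out (0.48 to 0.55, adjusted p 0.0556 to 0.103). Decr1 was called without T09 replicate 1 and not when any other single library was left out (0.41 to 0.53, adjusted p 0.0529 to 0.126).

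The remaining 3 genes of the later steps were not called. Eci1, an isomerase for unsaturated chains, had 86.8, 97.5 and 83.0 CPM with T09, against 61.6, 67.1, 81.3 and 82.9 CPM with vehicle (log2 fold change 0.28, SE 0.12, adjusted p = 0.269). Its groups all but met. Hadh, the dehydrogenase of short and medium hydroxyacyl chains, had 964, 1033 and 1166 CPM with T09, against 982, 962, 889 and 972 CPM with vehicle. The groups overlapped (0.15, 95% interval -0.09 to 0.38), and Echs1, the short-chain hydratase, stood at 0.05 (-0.20 to 0.29).

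Of the electron transfer genes, none of 3 was called with edgeR or limma-voom, 1 had an unadjusted p under 0.05, and DESeq2 called 1, Etfa. Etfa, the alpha subunit of ETF, had 266, 294 and 317 CPM with T09, against 218, 239, 245 and 238 CPM with vehicle. Its groups did not overlap (log2 fold change 0.31, SE 0.10, adjusted p = 0.118). Etfdh, which passes the electrons to ubiquinone, stood at 0.23 (SE 0.11, adjusted p = 0.322). Etfb, the beta subunit, had only 47, 64 and 105 counts with T09, against 42, 48, 63 and 40 counts with vehicle (0.55, SE 0.38, adjusted p = 0.503). Its value is uncertain, because 58.2% of its exonic bases are shared with a gene on the same strand that had 0 counts in every library.

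Of the ketone body genes among the 37, none of 3 was called with edgeR or limma-voom, 1 had an unadjusted p under 0.05, and DESeq2 called Oxct1 lower. Oxct1, the enzyme that lets tissues outside the liver use ketone bodies, had 92.5, 87.3 and 87.0 CPM with T09, against 162, 145, 111 and 104 CPM with vehicle. The T09 libraries lay close together below a widely spread vehicle group (log2 fold change -0.55, SE 0.15, adjusted p = 0.0863). It was called lower with DESeq2 (adjusted p = 0.0131) and without the filter on low counts (0.0399). Of its exonic bases, 12.6% are shared with a gene on the opposite strand.

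Bdh1, which interconverts the 2 main ketone bodies, and Acat1, the acetoacetyl-CoA thiolase, stood at 0.09 (95% interval -0.11 to 0.30) and -0.09 (-0.31 to 0.12). For Bdh1, 13.7% of exonic bases are shared with another gene. The 3 genes of propionyl-CoA breakdown, Pcca, Pccb and Mcee, stood at 0.09, 0.13 and 0.02. None had an unadjusted p under 0.05, and none was called by edgeR, DESeq2 or limma-voom.

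Of the kinases that hold back pyruvate oxidation and the uncoupling protein, none of 4 was called by edgeR, DESeq2 or limma-voom, and 2 had an unadjusted p under 0.05. Pdk2 had 145, 149 and 147 CPM with T09, against 184, 161, 178 and 199.6 CPM with vehicle, with no overlap (log2 fold change -0.30, SE 0.10, adjusted p = 0.137). Pdk4, a classic PPAR target in liver and muscle, had 51.2, 36.1 and 38.5 CPM with T09, against 67.7, 48.4, 53.6 and 85.0 CPM with vehicle. Its groups overlapped (-0.60, SE 0.20, adjusted p = 0.154). Vehicle replicate 4, the library highest in adipocyte markers, was also the highest here. Vehicle replicate 1 came next, with 0.0171% of counts from adipocyte markers, against 0.0236% in vehicle replicate 3. In these 2 libraries the marker share was mostly Cidec. Another marker, Adipoq, had 4 counts in vehicle replicate 1, 31 in vehicle replicate 3 and 479 in vehicle replicate 4. The part of adipocytes in the Pdk4 values was not tested. Pdk1 and Ucp2 stood at 0.16 (95% interval -0.09 to 0.42) and 0.23 (-0.01 to 0.47).

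Counting genes whose T09 and vehicle libraries did not overlap gave 17 of the 37 genes (45.9%), of which 14 were higher and 3 lower with T09. Among all genes tested, 16.8% did not overlap, 7.07% higher and 9.69% lower. The 14 were the 8 called genes with Acads, Acadm, Acadvl, Acad11, Eci1 and Etfa. The 3 on the lower side were Cpt1c, Oxct1 and Pdk2.

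Levels between genes were compared in FPKM, which the authors deposited per length. The length that the FPKM implied equalled the listed length for only 3 of 35 genes. The levels and ranks below therefore hold for the deposited FPKM, and another choice of length could change the order. In vehicle libraries 14 of the 37 genes were above 100 FPKM and 5 under 10 FPKM. Ucp2 had the highest deposited FPKM of the 37 genes, with 733 ± 86.6 FPKM with T09 and 646 ± 44.2 FPKM with vehicle (SD, n = 3 and 4). Hadh followed with 372 ± 19.1 FPKM with T09 and 348 ± 14.3 FPKM with vehicle, then Etfa with 348 ± 13.04 FPKM with T09 and 290.01 ± 15.1 FPKM with vehicle.

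Acadl averaged 269.5 ± 34.4 FPKM with T09, the 7th highest of the 37, and 125 ± 15.5 FPKM with vehicle, the 13th highest. Acadm averaged 291 ± 30.6 FPKM with T09 and 234 ± 11.2 FPKM with vehicle, and Acadvl 153 ± 16.7 FPKM with T09 and 125 ± 8.45 FPKM with vehicle. In deposited FPKM, Acadl was thus near Acadm with T09 and near Acadvl with vehicle. Slc25a20 was 15th with T09 (99.7 ± 4.13 FPKM) and 20th with vehicle (54.9 ± 4.79 FPKM). Cpt1a averaged 51.1 ± 5.15 FPKM with T09 and 28.4 ± 4.58 FPKM with vehicle, well under Cpt2 in both groups. The lowest in the vehicle order were Etfb, Cpt1b and Cpt1c, at 6.97, 0.429 and 0.190 FPKM with T09 and 4.98, 0.496 and 0.445 FPKM with vehicle. Of the 36 neighbouring pairs in the vehicle order, 27 had overlapping libraries and so no order that exceeds their spread, and 9 did not overlap.

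**Figure D4:**
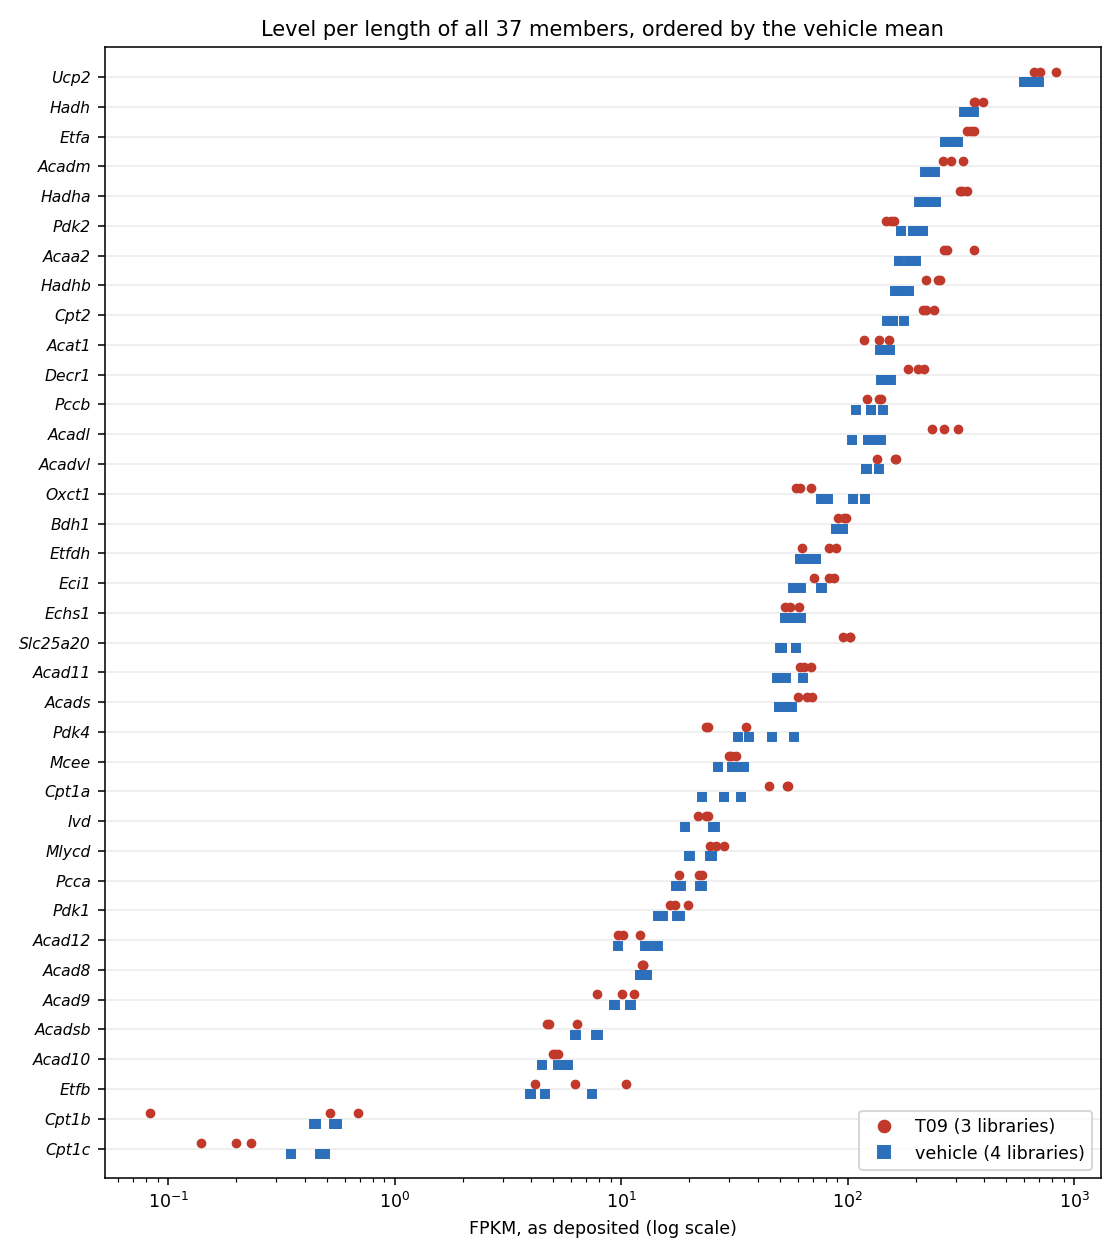
Deposited FPKM of the 37 genes per library on a log axis, ordered by the vehicle mean, with T09 and vehicle libraries in separate colours. Ucp2 is at the top and Cpt1c at the bottom of the vehicle order, and the T09 points of Acadl, Slc25a20 and Cpt1a lie clear to the right of the vehicle points.

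Outside the 37 genes, a list of 39 further genes of fatty acid oxidation and ketone metabolism had 33 tested, of which 4 were higher and 0 lower with edgeR and limma-voom, and 8 higher and 0 lower with DESeq2. At an unadjusted p under 0.05, 15 of the 33 were higher and 0 lower, beside the 7.26% and 10.6% of all genes tested, and the median over the list was a log2 fold change of 0.21. Acot2, a mitochondrial thioesterase that frees fatty acids from acyl-CoA, had 26.8, 38.7 and 41.8 CPM with T09, against 6.54, 10.8, 11.1 and 7.44 CPM with vehicle. The groups were far apart, and the 3.99-fold increase (log2 fold change 2.00, SE 0.22, adjusted p = 0.00289) exceeded that of any of the 37 genes, although reads may be shared with its close relative Acot1.

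Eci2, a second isomerase for unsaturated chains, had 65.2, 80.5 and 78.5 CPM with T09, against 36.3, 49.3, 45.2 and 39.4 CPM with vehicle (log2 fold change 0.81, SE 0.13, adjusted p = 0.00847). Acss1, which activates acetate in mitochondria, had 40.4, 50.5 and 58.5 CPM with T09, against 30.2, 31.9, 31.0 and 32.0 CPM with vehicle (0.67, SE 0.13, adjusted p = 0.0192). Acacb, which makes the CPT1 inhibitor malonyl-CoA at the mitochondrial surface, had 16.0, 26.2 and 23.6 CPM with T09, against 3.99, 9.65, 10.2 and 9.16 CPM with vehicle (1.41, SE 0.30, adjusted p = 0.0313). No groups overlapped in these 3 genes, so that Acacb and its product's target Cpt1a were both higher with T09.

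Acot2 and Eci2 were called in all 14 alternatives. Without vehicle replicate 3, vehicle replicate 4, T09 replicate 2 or T09 replicate 3, those 2 alone were called. Acss1 then had a log2 fold change of 0.54 to 0.68 and an adjusted p of 0.0561 to 0.0758, and Acacb 1.26 to 1.52 and 0.0634 to 0.111. Acacb was not called without vehicle replicate 2 either (1.497, adjusted p = 0.0540).

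Of 11 tested regulators of oxidation, 1 was called with edgeR and limma-voom, Ppara, which encodes PPAR alpha, and DESeq2 also called Ppard. Ppara had 116, 99.2 and 90.5 CPM with T09, against 35.8, 31.4, 27.5 and 30.4 CPM with vehicle, and rose by 1.70 on the log2 scale (SE 0.12, adjusted p = 0.000265). Ppard, which encodes the related PPAR delta, had 175 ± 47.2 CPM with T09 and 289.6 ± 56.3 CPM with vehicle (SD, n = 3 and 4) and was not called with edgeR (log2 fold change -0.72, SE 0.20, adjusted p = 0.0845). It was called lower with DESeq2 (adjusted p = 0.00812), without the filter on low counts (0.0338) and without T09 replicate 1 (-0.95, adjusted p = 0.0218).

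The count of genes called higher among the 37 varied with the tool and with which library was left out. It was 8 under the 2 other scalings, limma-voom and both filter settings, and 12 with DESeq2, which added Acads, Acadm, Acadvl and Etfa. It fell to 5 without vehicle replicate 1 and to 4 without vehicle replicate 3, vehicle replicate 4, T09 replicate 2 or T09 replicate 3, and was 10 without T09 replicate 1. Oxct1 was also called with DESeq2 and without the filter on low counts, as lower. Cpt1a, Slc25a20 and Acadl were called under every one of the 14 alternatives, with an adjusted p of at most 0.0315.

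**Figure D5:**
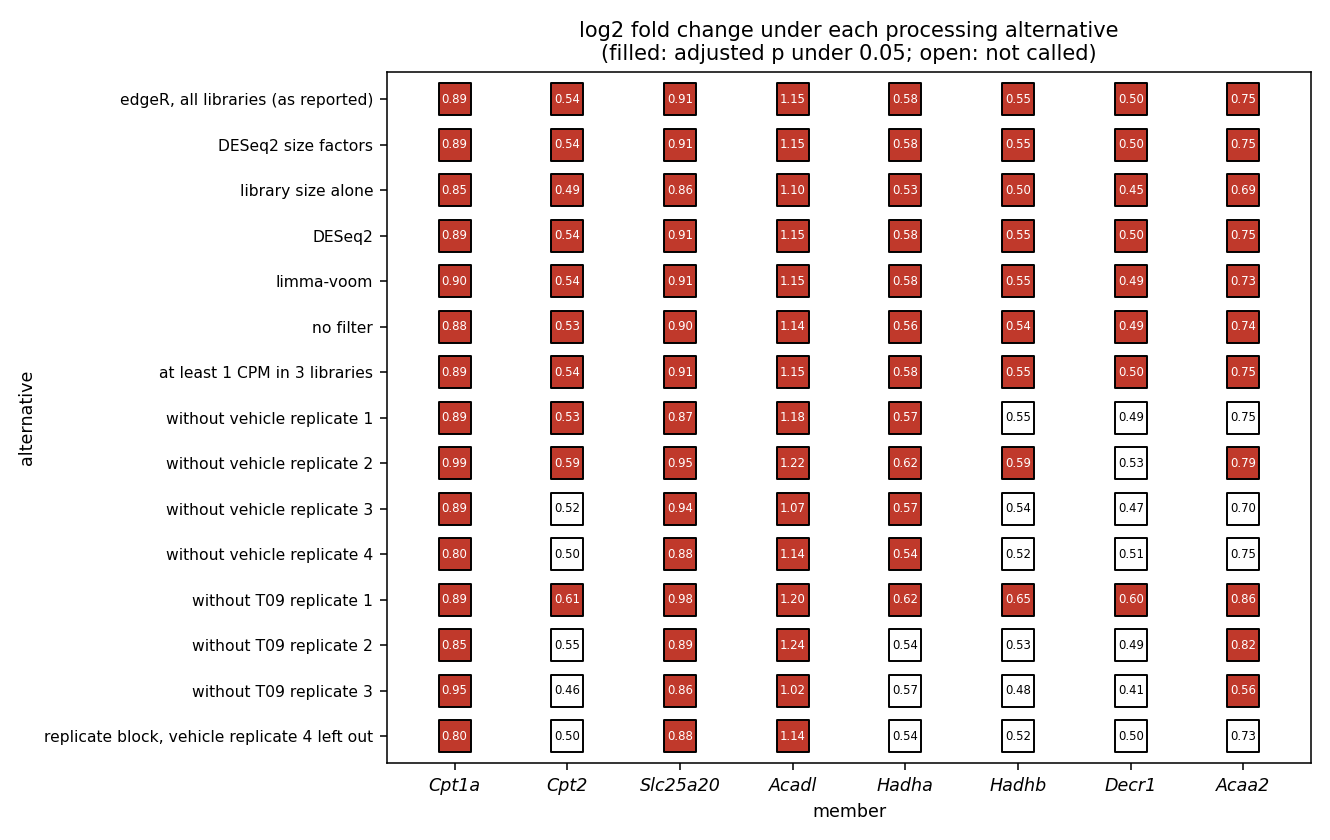
The 8 called genes (columns) under the reported analysis and 14 alternatives (rows), with log2 fold change in each cell and filled cells where the adjusted p was under 0.05. Cpt1a, Slc25a20 and Acadl are filled in every row; Decr1 loses its call most often, in 7 alternatives, and no value is below 0.

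The libraries held 18040531 to 20494485 counts with T09 and 15395535 to 19007647 counts with vehicle. Markers of some other cell types moved with treatment, and none of those listed was at 0 in every library. Goblet, macrophage and dendritic cell, and erythroid markers had 0 of 7, 0 of 8 and 0 of 4 tested genes called by edgeR. Their shares of counts overlapped between the groups. All 7 goblet markers had log2 fold changes below 0 (median -0.23), and 2 of them had an unadjusted p under 0.05. The macrophage and dendritic cell share was highest in T09 replicate 1 (0.0190%, against 0.00396% and 0.00590% in the other T09 libraries). Smooth muscle markers took 0.0455% to 0.0734% of counts with T09 and 0.162% to 0.261% with vehicle, and all 12 were called lower. Of the enteric neuron and glia markers, whose shares are given with Cpt1c, 5 of 9 tested genes were called lower. Adipocyte markers took 0.0109% to 0.0155% with T09 and 0.0171% to 0.0447% with vehicle, the highest being vehicle replicate 4, and 0 of 6 tested were called by edgeR (5 at an unadjusted p under 0.05, all lower; 3 with DESeq2, 0 with limma-voom). Outside vehicle replicate 4 this summed share was mostly Cidec, which had 1842 to 3019 counts with T09 and 2894 to 3748 with vehicle. Adipoq had 0, 0 and 8 counts with T09, against 4, 15, 31 and 479 with vehicle.

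Enterocyte markers took 4.47% to 4.76% of counts with T09 and 5.14% to 5.36% with vehicle, so markers of the labelled tissue were plentiful in both groups, and 0 of 14 were called by edgeR (4 at an unadjusted p under 0.05, all lower; 2 with DESeq2, 0 with limma-voom). The summed enterocyte share was lower in every T09 library than in any vehicle library, while the 37 genes took a larger share. The part of these marker differences in the results was not tested.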

How the data were processed

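Poly(A)-selected duodenal RNA of 3 T09 and 4 vehicle mice was sequenced, 1 library per mouse, from libraries made with a NEBNext Ultra kit, per the labels' protocols. Tools named in the submitters' processing notes, with no role or order, are DESeq 1.18.0, HTSeq 0.6.1, TopHat2 2.0.12 and Bowtie2 2.2.3. No source at hand states the genome build, or how strand and reads shared between genes were treated. Raw read counts per gene and FPKM, which the authors derived from them, were deposited side by side, per the file headers. The FPKM of each gene implied the same length in all libraries within 0.1% for 35 of 35 members with over 50 counts, but the implied length equalled the listed length for only 3 of them. FPKM was used only to compare levels between genes. Coordinates are those of the table, of which 31 of 37 equal GENCODE M21 on GRCm38 and all 37 overlap it.

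Counts were fitted in R 4.3.3 with edgeR 4.0.16 (filterByExpr, TMM, glmQLFit and glmQLFTest) on all 7 libraries, with Benjamini-Hochberg adjustment over 14250 genes and calls at an adjusted p under 0.05. The SE is the log2 fold change divided by the square root of F. CPM use TMM-scaled library sizes. Within-library ratios were computed in Python 3.11.15, and no test of them is reported. RefSeq promoters of GRCm38.p6 matched 32 of 37 genes.

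The 37 genes and all lists were chosen with earlier results of these data known. Called genes, uncalled genes whose groups did not overlap and the CPT1 isozymes are given per library; of the further lists, called genes are named. Ppard and the 6 ratio pairs were picked with their values in view. Of the further lists, 2 genes are not reported here. The comparison was repeated with DESeq2 1.42.0, limma-voom (limma 3.58.1), scaling by library size alone or by DESeq2's size factors, no filter, a minimum of 1 CPM in 3 libraries, each library left out, and the replicate number as a block. The p-values measure the spread between these mice.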

Additional observations from a re-analysis of the deposited data

Results flagged for a closer look

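Among the 4 vehicle libraries, 1 library stood apart from the other 3 by Dixon's gap criterion in 3 of 60 sets of values examined, and chance alone flags about 1 in 20 sets. Acadvl had 150.1 CPM in vehicle replicate 3, above 133 to 134 CPM in the others. Ivd had 20.02 CPM in vehicle replicate 1, below 26.8 to 27.1 CPM in the others. Acacb had 3.99 CPM in vehicle replicate 1, below 9.16 to 10.2 CPM in the others.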

How the results depend on the processing

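DESeq2 called 1091 genes in all (372 higher and 719 lower), against 614 in the reported analysis (205 higher and 409 lower); it called 1 of the 37 genes lower, 8 of the further oxidation genes and 2 regulators. Without the filter on low counts these last 3 numbers were 1, 7 and 2. Leaving out each library in turn gave 251 to 819 genes in all, 4 to 10 of the 37 higher and 0 lower, 2 to 6 further oxidation genes and 1 to 2 regulators. The median log2 fold change of the 37 genes then ran from 0.16 to 0.21, and that of the mitochondrial comparison list from -0.0016 to 0.10. Leaving out T09 replicate 2 left 303 calls in all, T09 replicate 3 left 251, vehicle replicate 3 left 280 and vehicle replicate 4 left 285. Why the counts moved was not tested.

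Over 14 alternatives, 465 values of the 37 genes kept their direction and side of the threshold, 25 lost a call, 8 gained one and 19 changed sign, none of them called. The sign changes were Ivd (-0.047), Echs1 (-0.0063) and Mcee (-0.025) with library size alone, Acad10 (0.0011) with limma-voom and Ivd (-0.0077) without the filter. Leaving out a library gave -0.093 to 0.085 for Ivd, -0.076 to 0.044 for Acad10, -0.048 to 0.084 for Mcee, -0.097 to 0.095 for Acad9, -0.044 to 0.13 for Echs1 and -0.68 to 0.36 for Cpt1b.

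With the replicate number as a block and vehicle replicate 4 left out, 280 genes were called in all, 3 of the 37 higher (Cpt1a, Slc25a20 and Acadl), and 2 regulators (Ppara higher and Ppard lower, adjusted p = 0.0242 for Ppard). Deviations of same-numbered libraries correlated at 0.27, 0.04 and -0.04, the first being the highest of all T09 and vehicle pairs. Differently numbered pairs ran from -0.29 to 0.18. So few values cannot settle whether the numbers pair the mice. Low counts limit Cpt1b, Cpt1c and Etfb, whose standard errors were 0.58, 0.35 and 0.38.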
